A study of Homo sapiens with 9 samples.

Results

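Expression profiles of MDA-MB-231 cells with either of 2 Coco hairpins were averaged over both hairpins and compared with those of cells with a scramble hairpin. The difference is the mean of the shco2 and shco4 group means minus the scramble mean, on the log2 scale after values under 16 were set to 16. A probe set was kept when all 6 hairpin arrays lay on 1 side of all 3 scramble arrays. Of 22215 probe sets on the array, 2304 met this condition, 10.4% of those examined, and they carry the symbols of 1702 of the 11963 genes with a named probe set. In 1192 of them (5.37% of all probe sets) the hairpin arrays lay above scramble, and in 1112 (5.01%) they lay below. Since these probe sets were selected on their intensities against scramble, their differences from scramble are given below as descriptions without a test. The contrast between shco4 and shco2 was tested. Its difference does not use the scramble arrays, but the spread behind its intervals and p-values was estimated from all 9 arrays. The choice of probe sets is thus not fully independent of this test.

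Coco, encoded by DAND5, is a secreted protein of the Cerberus and DAN family that holds back growth factors of the TGF-beta superfamily (BMP, Nodal and activin) by binding them. These factors signal through serine/threonine kinase receptors and Smad transcription factors, and BMP signalling is known for inducing the ID genes. In breast cancer, cells that have spread to the lung meet BMP in the surrounding stroma, and antagonists such as Coco bear on whether they stay dormant or grow out.

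MDA-MB-231 is an established human breast cancer line of the triple-negative, mesenchymal-like type. The 3 groups were cells stably transduced with a pLKO lentiviral vector for a control hairpin (scramble), for Coco shRNA #2 (shco2) or for Coco shRNA #4 (shco4), each with 3 arrays labelled as biological replicates. They shared the vector, DMEM medium with 10% serum and the 3′ labelling of 200 ng of total RNA. Nothing in the labels says how far the replicates were separate cultures, so p-values measure the spread between these samples, which may be technical. Each group is described as 1 stable line, so hairpin and line cannot be told apart. Both hairpin groups are set against the same 3 scramble arrays, so a difference particular to the scramble line cannot be told apart from one shared by both hairpins. The array had 0 probe sets named DAND5, so how far Coco itself was reduced is not analysed here.

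After the authors' scaling, median intensity per array was 122.367 to 129.313. The line's own markers were present: the summed intensity of VIM, CD44, EGFR, CAV1, LGALS1 and S100A4 was 48800 to 52500 on the scramble arrays, 30700 to 31600 with shco2 and 51300 to 52900 with shco4. Of these 6, EGFR and LGALS1 lay below scramble by the rule, a count that was 0 with median centring and 3 after quantile normalization. Genes expected low in this line (ESR1, PGR, CDH1 and CDKN2A) summed to 135 to 207 in scramble, 114 to 126 with shco2 and 301 to 334 with shco4. Markers of leukocytes summed to at most 435 over 8 genes on any array, with LYZ at the floor throughout, and those of fibroblasts to at most 606 over 7 genes. Of the 7 fibroblast, 8 leukocyte and 5 endothelial markers, 0 met the rule in either direction. The 3′ to 5′ signal ratio of ACTB was 1.07 to 1.10 in scramble, 1.08 to 1.11 with shco2 and 1.12 to 1.14 with shco4, and that of GAPDH overlapped between the groups.

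Probe sets below scramble differed by more than those above. The median difference was 0.49 on the log2 scale (1.40-fold) among those above and -0.66 (1.58-fold) among those below. A mean difference of at least 2-fold was reached by 89 probe sets above and by 220 below. Over the whole array, 149 probe sets were at least 2-fold higher and 301 at least 2-fold lower, whether or not the arrays overlapped. The gap between the nearest hairpin array and the nearest scramble array exceeded 1 on the log2 scale in 3 probe sets above and 29 below. In the linear model fitted over all probe sets with limma, 3136 (14.1%) were called for the mean of both hairpins, 1494 higher (6.73%) and 1642 lower (7.39%). That model called 931 of the 1192 above and 876 of the 1112 below, from the same contrast that chose them. At the edge of the rule, DNAJC8 just qualified, with a highest scramble value of 450.338 and a lowest hairpin value of 450.425. RBMX2 just failed, with 240.001 in scramble and 239.989 on an shco4 array.

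**Figure D1:**
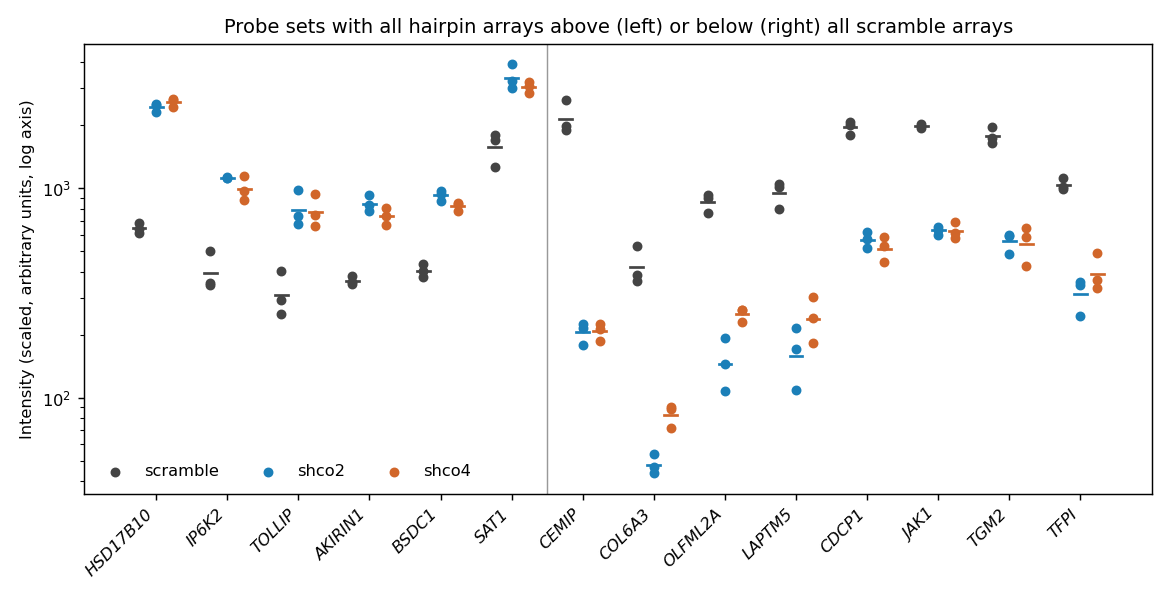
Intensity in arbitrary scaled units on a log axis for 6 probe sets above and 8 below scramble. Each point is 1 of the 9 arrays and each bar a group mean of log2 values. HSD17B10 lies at 610 to 683 in scramble and 2321 to 2666 with the hairpins, and CEMIP at 1901 to 2624 in scramble and 178 to 226 with the hairpins.

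HSD17B10 showed the widest gap of all genes above scramble. It encodes a mitochondrial dehydrogenase that takes part in isoleucine breakdown and is also a subunit of the mitochondrial enzyme that trims transfer RNA precursors. Its probe set read 637, 683 and 610 on the scramble arrays, 2321, 2533 and 2490 with shco2, and 2426, 2624 and 2666 with shco4. All 6 hairpin arrays lay in a narrow band far above the 3 scramble arrays, and the mean difference was 3.90-fold. Between the hairpins it differed by 0.07 on the log2 scale (95% interval -0.07 to 0.21; limma adjusted p = 0.447). Of the 20 genes measured for mitochondrial dehydrogenases and branched-chain amino acid breakdown, 2 lay above (HSD17B10 and HADHB) and 2 below (ALDH6A1 and HADH).

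CEMIP showed the widest gap of all genes below scramble. Its product binds hyaluronan, the large sugar polymer of the matrix, and is needed for its breakdown at the cell surface. The intensity was 2624, 1901 and 1973 in scramble, 178, 226 and 215 with shco2, and 225, 213 and 187 with shco4. The mean was 10.40-fold lower, with no overlap, and the hairpins differed from each other by 0.02 on the log2 scale (95% interval -0.35 to 0.38; limma adjusted p = 1). Of the 11 hyaluronan genes measured, CEMIP was the only one below, and HMMR, a hyaluronan-binding protein of the mitotic spindle, was the only one above. The promoters of both leading genes are shown because these are the widest separations in each direction, from 250 bases before to 50 after the start in RefSeq (GRCh38.p14), with matches to the searched motifs in capitals.
HSD17B10, chrX:53434327-53434626, minus strand: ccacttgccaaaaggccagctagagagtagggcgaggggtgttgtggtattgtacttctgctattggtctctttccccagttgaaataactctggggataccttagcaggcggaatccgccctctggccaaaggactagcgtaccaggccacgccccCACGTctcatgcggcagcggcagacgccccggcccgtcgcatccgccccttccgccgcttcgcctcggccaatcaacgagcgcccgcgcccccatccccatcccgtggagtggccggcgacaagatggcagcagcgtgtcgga
CEMIP, chr15:80779120-80779419, plus strand: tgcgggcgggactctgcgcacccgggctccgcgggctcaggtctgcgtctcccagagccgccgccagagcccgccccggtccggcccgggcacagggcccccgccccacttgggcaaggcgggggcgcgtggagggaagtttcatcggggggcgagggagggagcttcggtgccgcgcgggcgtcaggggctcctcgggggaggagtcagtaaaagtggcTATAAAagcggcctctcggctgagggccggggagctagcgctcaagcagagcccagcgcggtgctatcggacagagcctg
In the CEMIP window the capitals mark TATAAA, at position -30 from the start. That motif lies in 8.3% of the promoters of genes on the array and in 12% of all promoters of this length in the table. In HSD17B10 they mark ACGTG, the core of the hypoxia response element, read on the opposite strand. These are letter matches on either strand, and no factor was measured at them.

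The other genes with wide gaps above scramble had moderate levels and varied functions. AKIRIN1, a nuclear protein, read 355, 380 and 348 in scramble, 928, 830 and 782 with shco2 and 733, 805 and 671 with shco4 (2.18-fold). BSDC1, named for its BSD domain, read 435, 375 and 402, then 943, 970 and 865, then 843, 851 and 782 (2.17-fold). In both genes the 6 hairpin arrays were close together and far from scramble. IP6K2, a kinase of inositol phosphates, read 346, 352 and 502 in scramble against 882 to 1149 with the hairpins. TOLLIP, an adaptor that restrains Toll-like and interleukin-1 receptor signalling, read 404, 292 and 253 against 660 to 980. In TOLLIP replicate 1 was the highest array of each group, so the spread within groups was wider than in AKIRIN1.

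SAT1, the enzyme that starts polyamine breakdown by acetylation, lay above scramble at all 3 of its probe sets. At the widest of them it read 1263, 1705 and 1798 in scramble, 3013, 3892 and 3238 with shco2 and 2846, 3208 and 3060 with shco4. PPP1R10, a nuclear regulator of protein phosphatase 1, read 898, 789 and 663, then 1878, 1546 and 1412, then 1921, 1520 and 1724. Among genes at least 2-fold above scramble, these were among the 5 with the highest level. DYNLRB1, a light chain of dynein, and NKIRAS2, a Ras-like binder of NF-kB inhibitors, were above with each hairpin but unequally. DYNLRB1 read 1156, 1132 and 1297 in scramble, 3124, 3264 and 3171 with shco2 and 2014, 2450 and 2213 with shco4, a difference of -0.52 between the hairpins (SE 0.08; limma adjusted p = 0.00351). NKIRAS2 read 278, 240 and 229, then 987, 1053 and 986, then 507, 454 and 431, a difference of -1.12 (SE 0.09; limma adjusted p = 0.000287). Some genes with wide gaps rest on low signal. EYA3, DUSP8 and SLC2A11 read at most 32.2 in scramble, and all 3 no longer met the rule when the floor was raised to 64.

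Matrix genes with wide gaps below scramble included COL6A3, OLFML2A and TGM2. COL6A3, a chain of the microfibrillar collagen VI, read 528, 384 and 362 in scramble, 46.9, 54.2 and 43.7 with shco2 and 90.7, 88.3 and 72.2 with shco4. Its mean was 6.62-fold lower, and the shco4 arrays exceeded the shco2 arrays by 0.79 (SE 0.17; limma adjusted p = 0.013), a call that was lost with a floor of 64 (adjusted p = 0.142). COL6A1, another chain of collagen VI, was lower with shco2 alone and overlapped with shco4: it read 1350 to 1742 in scramble, 642 to 793 with shco2 and 1532 to 1967 with shco4. Of 17 collagens measured, 4 lay below (23.5%; COL6A3, COL8A1, COL5A1 and COL4A1) and 0 above, where 5.46% of all genes lay below and 6.44% above; without shco4 replicate 1, 7 lay below. The list's median difference was -1.08 with shco2 and -0.02 with shco4, where the median of all genes was 0 with each, so the shift of the list as a whole lay with shco2. COL8A1, a collagen of vessel walls, read 265 to 313 in scramble, 87.7 to 111 with shco2 and 161 to 222 with shco4.

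Of 16 enzymes that crosslink or modify the matrix, 5 lay below (31.2%) and 1 above. TGM2, the transglutaminase that crosslinks proteins through glutamine and lysine, read 1643, 1736 and 1955 in scramble, 488, 590 and 601 with shco2 and 424, 647 and 584 with shco4. It was 3.22-fold lower with a difference of -0.04 between the hairpins (95% interval -0.45 to 0.38), and 3 of its 4 probe sets met the rule. PLOD2, a lysyl hydroxylase of collagen, read 1923 to 2383 in scramble, 940 to 1300 with shco2 and 984 to 1054 with shco4. LOX, which starts lysine crosslinks, read 1176 to 1834, then 550 to 887, then 820 to 1136, and its arrays overlapped after quantile normalization. LOXL2, a relative of LOX, was below mainly through shco2, with 4609, 4385 and 4470 in scramble, 972, 1081 and 1036 with shco2 and 3613, 3894 and 4042 with shco4. P3H1, a prolyl hydroxylase of collagen, was the member of this list above scramble, at 823 to 846 against 961 to 1435. Among 32 matrix glycoproteins, laminins and proteoglycans, OLFML2A, TNC, SPARC and GPC1 lay below and 0 above. OLFML2A, a secreted olfactomedin-like protein, read 763, 930 and 898 in scramble, 108, 146 and 193 with shco2 and 230, 264 and 262 with shco4, and SPARC, at 31.5 to 38.9 in scramble, left the rule with a floor of 64.

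Among genes of pericellular proteolysis and clotting control, CDCP1, PLAT and TFPI were below to a like extent with each hairpin. PLAU and MMP1 were below unequally. CDCP1, a transmembrane substrate of Src kinases, read 1996, 1798 and 2073 in scramble, 573, 518 and 616 with shco2 and 582, 443 and 529 with shco4. PLAT, tissue plasminogen activator, read 1874, 2152 and 3056, then 588, 611 and 895, then 429, 642 and 939. In PLAT replicate 3 was the highest array of each group, and the groups still did not overlap. TFPI, the inhibitor of the tissue factor pathway, read 1017, 995 and 1113, then 247, 359 and 347, then 489, 363 and 333. Those are values of its probe set with the widest gap. TFPI met the rule at 2 of its 5 probe sets, and its brightest did not meet it. The interval of the difference between the hairpins was -0.42 to 0.14 for CDCP1, -0.92 to 0.71 for PLAT and -0.15 to 0.78 for TFPI on the log2 scale. Of 26 genes listed as plasminogen activators, matrix proteases and inhibitors, 4 were below (15.4%) and TIMP2 was above. The 4 were PLAT, MMP1, TIMP3 and CDCP1, the last being on the list though neither a protease nor an inhibitor. PLAU, another plasminogen activator, was not in that count but met the rule at 1 of its 2 probe sets. There it read 2622 to 3387 in scramble, 2064 to 2347 with shco2 and 808 to 1020 with shco4. MMP1 read 63.1 to 82.3, then 14.8 to 28.8, then 43.6 to 60.3. The difference between shco4 and shco2 was -1.32 for PLAU (limma adjusted p = 0.000498) and 1.22 for MMP1 (limma adjusted p = 0.012). The call for MMP1 was lost with a floor of 64.

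Signalling and immune genes were also among those with wide gaps below. JAK1, the tyrosine kinase of interferon and interleukin-6 family receptors, had very even values: 1988, 1944 and 2027 in scramble, 599, 635 and 657 with shco2, and 578, 615 and 687 with shco4. Its difference between hairpins was -0.01 (95% interval -0.17 to 0.15), and the mean was 3.17-fold lower. AIM2, a sensor of DNA in the cytosol, read 249, 215 and 307, then 62.1, 69.0 and 89.4, then 93.5, 71.3 and 87.5. C4BPB, a chain of the complement regulator C4b-binding protein, read 1703, 1571 and 1307, then 506, 538 and 453, then 578, 622 and 604. LAPTM5, a lysosomal membrane protein best known from blood cells, read 1049, 1013 and 799, then 109, 215 and 172, then 240, 304 and 183. No leukocyte marker lay below with it, and their sum was 167 to 244 in scramble, 174 to 242 with shco2 and 276 to 435 with shco4. TGFB1I1, a focal adhesion protein related to paxillin, read 1320, 1269 and 1449, then 449, 475 and 541, then 427, 587 and 600. The groups were well apart in each of these 5 genes. GGT5, an enzyme that cleaves glutathione conjugates, read 150, 130 and 96.0 in scramble and under the floor of 16 on all 6 hairpin arrays, which makes it at least 7.69-fold lower, a value that shrinks with a floor of 64.

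Genes of hypoxia and glycolysis had the largest share below of all the lists examined. Under low oxygen the transcription factor HIF-1 binds ACGTG cores and raises glucose transporters, glycolytic enzymes and the hydroxylases that in turn limit it. The labels name no oxygen condition. Of 25 genes measured, 12 lay below (48.0%) and 0 above, with a median difference of -0.42 (-0.41 with shco2 and -0.32 with shco4). Across the alternative settings and with single arrays left out, 11 to 16 lay below. NDRG1, a stress-induced gene, read 3578, 2751 and 3767 in scramble, 1051, 961 and 1206 with shco2 and 1351, 1445 and 1661 with shco4. VEGFA, the angiogenic growth factor, lay below at all 4 of its probe sets, and at its brightest read 2218, 2005 and 2640, then 980, 1103 and 1146, then 988, 1061 and 1557. BNIP3, a mitochondrial protein of mitophagy, read 6102, 4951 and 6221, then 3876, 4406 and 4656, then 2630, 2801 and 3081. EGLN3, an oxygen-sensing prolyl hydroxylase, read only 76.2 to 105 in scramble and 27.8 to 51.8 with the hairpins.

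Among the enzymes, HK2, which phosphorylates glucose, read 739, 662 and 880 in scramble, 480, 472 and 582 with shco2 and 200, 303 and 289 with shco4. PDK1, which restrains entry of pyruvate into mitochondria, read 343, 261 and 256, then 232, 214 and 224, then 129, 139 and 81.5. Both were lower with shco4 than with shco2, with differences of -0.97 for HK2 (limma adjusted p = 0.00919) and -0.98 for PDK1 (limma adjusted p = 0.0152). The abundant enzymes differed little: PGK1, TPI1 and ALDOA were 1.18-fold, 1.34-fold and 1.24-fold lower. PGK1 nevertheless read 9033 to 9908 in scramble and at most 8477 on any hairpin array, and it lay below at all 4 of its probe sets. The list was not uniform. ADM, a vasodilator peptide gene, read 814 to 949 in scramble, 1768 to 1901 with shco2 and 843 to 1108 with shco4. BNIP3L, GPI and HK1 had 1 hairpin's mean above scramble and the other's below.

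**Figure D2:**
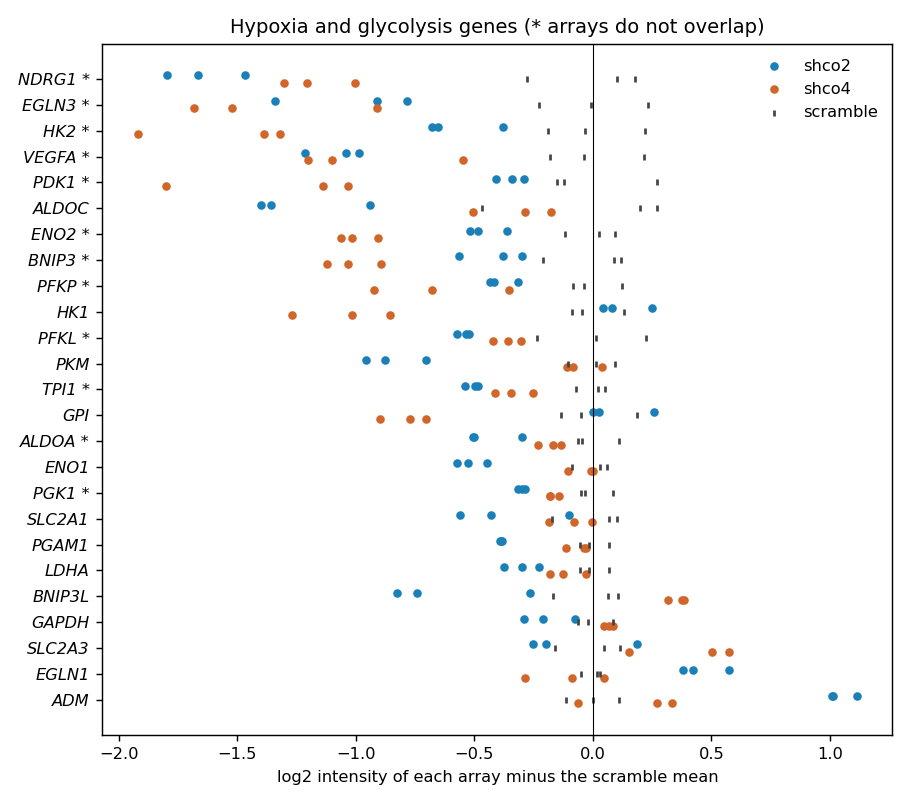
Log2 intensity of each array minus the scramble mean for the 25 hypoxia and glycolysis genes measured, with 1 point per array. The 12 genes marked with an asterisk have all 6 hairpin arrays below all 3 scramble arrays; ADM, at the bottom, is higher with shco2 alone.

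Promoters of 2 genes of this list that lay below are shown because they hold the ACGTG core, in capitals, from 250 bases before to 50 after the start (RefSeq, GRCh38.p14).
BNIP3, chr10:131981874-131982173, minus strand: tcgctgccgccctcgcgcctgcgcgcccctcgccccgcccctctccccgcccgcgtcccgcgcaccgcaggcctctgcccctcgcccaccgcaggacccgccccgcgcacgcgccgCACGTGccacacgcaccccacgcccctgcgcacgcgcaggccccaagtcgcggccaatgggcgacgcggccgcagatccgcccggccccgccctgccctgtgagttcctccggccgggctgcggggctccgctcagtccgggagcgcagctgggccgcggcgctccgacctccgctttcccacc
PGK1, chrX:78103998-78104297, plus strand: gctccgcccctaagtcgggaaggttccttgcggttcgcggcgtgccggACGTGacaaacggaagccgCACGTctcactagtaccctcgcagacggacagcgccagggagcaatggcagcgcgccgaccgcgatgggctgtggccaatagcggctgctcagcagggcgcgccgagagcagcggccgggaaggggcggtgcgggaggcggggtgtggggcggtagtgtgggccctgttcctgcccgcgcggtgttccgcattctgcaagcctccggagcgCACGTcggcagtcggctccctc
In BNIP3 the core lies within CACGTG and so reads on both strands, and CACGTG is also the E-box of Myc. In PGK1 it lies 1 time on the gene's strand and 2 times on the opposite strand. Of the 12 genes below, 10 had a promoter in the table and 5 of these hold the core (50%). It is also in 5 of 11 (45.5%) of the list's other genes and in 24.8% of 9563 genes on the array. Within the list the shares with and without the shared difference were close. Of all genes with a promoter in the table, 33.2% of 787 above and 25.6% of 661 below hold it.

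In the list for YAP and TAZ, the coactivators of the Hippo pathway, 5 of 14 genes lay below (35.7%) and 0 above. The 5 were AXL, WWTR1, ANKRD1, NT5E and CRIM1. The list's median difference was -0.08 with shco2 and -0.59 with shco4, where that of all genes was 0 with each. The shift of the list as a whole thus lay mainly with shco4. WWTR1 encodes TAZ itself rather than a target, and met the rule at 1 of its 3 probe sets, with 887, 1197 and 1317 in scramble, 445, 742 and 635 with shco2 and 305, 464 and 639 with shco4. ANKRD1, a nuclear target, read 612, 674 and 618, then 403, 556 and 549, then 185, 294 and 281. AXL, a receptor tyrosine kinase, was nearly level with shco2 and far lower with shco4: 9141, 9003 and 9928, then 8532, 8038 and 8312, then 1829, 2250 and 2449. AXL and NT5E overlapped scramble after quantile normalization, which left 3 of the 14 below. CCN2, a widely used target, did not meet the rule, with 1731 to 2345 in scramble, 2488 to 3222 with shco2 and 243 to 900 with shco4.

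Integrins and focal adhesion genes lay below at 6 of 24 (25%; ITGA6, ITGA5, ITGA3, ITGB5, CAV2 and PXN) and above at 0. ITGB5, a subunit of a vitronectin receptor, was the most even of the receptors, with 1648 to 1869 in scramble, 1008 to 1078 with shco2 and 934 to 1139 with shco4. ITGA3, a laminin receptor subunit, read 2577 to 2964, then 990 to 1152, then 1930 to 2211. ITGA5, the fibronectin receptor subunit, read 714 to 857, then 494 to 633, then 277 to 343. The order of the hairpins was thus opposite in these genes, by 0.91 for ITGA3 (limma adjusted p = 0.000467) and by -0.91 for ITGA5 (limma adjusted p = 0.00216). Keratins and junction genes lay below at 6 of 23 (26.1%; 4 with median centring) and above at 0. DSG2, a desmosomal cadherin, read 1035 to 1305, then 278 to 322, then 670 to 730, and CLDN7, a tight junction protein, read 213 to 356, then 82.4 to 126, then 108 to 129. The summed level of the 7 luminal markers, which include KRT19, was 5470 to 7080 in scramble, 3160 to 3250 with shco2 and 5230 to 5670 with shco4, and 0 of them met the rule by their brightest probe set; their part in the junction genes was not tested.

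Receptor tyrosine kinases and growth factors had 6 of 30 below (20%) and EREG above. NRG1, a ligand of ERBB receptors, read 1035, 1241 and 1055 in scramble, 611, 757 and 632 with shco2 and 206, 469 and 390 with shco4. EREG, another ligand of the same receptor family, ran the other way with 261, 309 and 393, then 487, 795 and 531, then 456, 571 and 520. EGFR, a receptor of that family, read 862 to 1114 in scramble, 495 to 550 with shco2 and 800 to 858 with shco4. EGFR barely met the rule, at 1 of its 6 probe sets, and left it under quantile normalization and under median centring.

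Genes of the pathway that Coco is known to block were counted by role. Of 13 BMP target genes, 0 lay above and 0 below, where 6.44% and 5.46% of all genes did. With so few genes, counts of 0 do not set this list apart from all genes. ID1, the classical one, read 5742, 4762 and 3101 in scramble, 2517, 3088 and 1906 with shco2 and 3491, 2898 and 2094 with shco4. Its lowest scramble array lay above the 3 shco2 arrays and below 1 shco4 array, so the arrays overlapped. The mean of ID1 was 1.79-fold lower with shco2 and 1.59-fold lower with shco4. Each hairpin array read below the scramble array of the same number, and this was not tested. Of 35 genes listed as ligands, receptors and antagonists, BMP6, SMAD1 and ACVR1 lay above, and FSTL1, FST and TGFBR2 below. That is 8.57% in each direction beside 6.44% and 5.46% of all genes. SMAD1, though on this list, encodes a Smad transcription factor. The count above was 5 with median centring, without scramble replicate 3 and without shco4 replicate 3, and 2 with a floor of 64. BMP6, a BMP ligand, read at most 46.0 in scramble and left the rule with a floor of 64, and its other probe set overlapped with a mean difference of -0.41. ACVR1, a type I receptor for BMP ligands, read 357, 373 and 473 in scramble, 521, 614 and 603 with shco2 and 537, 552 and 624 with shco4. FSTL1, a secreted follistatin-like protein, read 5938, 5504 and 4400, then 3370, 3365 and 3147, then 1239, 1445 and 1400, with a difference of -1.28 between shco4 and shco2 (SE 0.12; limma adjusted p = 0.00047). FST, follistatin, the antagonist of activin, read 1397 to 1833, then 863 to 1184, then 1127 to 1373, and left the rule with median centring. BMP4 did not meet it, with 2527 to 2893 in scramble, 573 to 732 with shco2 and 2828 to 3244 with shco4. Of 15 TGF-beta and activin targets, FST alone lay below (6.67%) and 0 above.

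Of 18 EMT transcription factors and mesenchymal genes, 1 lay above (SNAI1) and 3 below (AXL, SPARC and LGALS1). SNAI1, a repressor of E-cadherin, was above but read at most 13.1 in scramble and left the rule with a floor of 64. HMGA2, a chromatin protein of embryonic cells, read 592, 757 and 680 in scramble, 1044, 1264 and 1076 with shco2 and 1330, 1229 and 1422 with shco4 (1.81-fold). FSCN1, the actin-bundling protein fascin, was above mostly through shco4, at 135 to 172 in scramble, 202 to 290 with shco2 and 509 to 840 with shco4 at the probe set of wider gap. Of the 18 genes of a lung metastasis signature, 3 lay above (FSCN1, EREG and ROBO1) and 3 below (MMP1, TNC and SPARC). MMP1 and SPARC left the rule with a floor of 64, which left 1 of the 18 below, and MMP1 also after quantile normalization, while 6 lay below without scramble replicate 1. Of the 8 CD44 probe sets, 1 lay below and 7 overlapped, with shco4 higher than shco2 at all 8.

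Cell cycle lists were counted next. Of 30 G1/S and replication genes, TYMS lay below and 0 above. TYMS, thymidylate synthase, left the rule after quantile normalization and with median centring, which leaves 0 of 30 below. The list's median was 0.48 with shco2 and -0.98 with shco4. Of 28 G2/M and mitosis genes, KIF11, KIF23, CENPE and CCNA2 lay below (14.3%, beside 5.46% of all genes) and HMMR above. KIF11, a spindle motor, read 1058, 1375 and 1255 in scramble, 660, 982 and 812 with shco2 and 409, 623 and 651 with shco4. CCND1, the G1 cyclin, lay below at both of its probe sets and at the dimmer one read 811, 957 and 721, then 477, 475 and 539, then 430, 551 and 614. The interferon list had 3 of 25 above (IFI6, IRF7 and MX1) and 2 below (IFIT5 and IFI35). The NF-kB and cytokine list had 3 of 23 above (13.0%; TOLLIP, CXCL3 and NFKB1) and IL1B below (4.35%). CXCL3 and IL1B left the rule with a floor of 64. Counts of 0 in both directions were found for 16 cytosolic ribosomal protein genes and 17 endoplasmic reticulum chaperones, lists too short for 0 to set them apart.

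Outside glycolysis, several metabolic enzymes met the rule. SCD, the desaturase that makes monounsaturated fatty acids, lay below at all 4 of its probe sets, and at the widest read 834, 646 and 817 in scramble, 288, 341 and 333 with shco2 and 340, 367 and 255 with shco4. Of 18 sterol and fatty acid synthesis genes, SCD and FASN lay below and NSDHL above, and FASN left the rule with median centring. ALDH6A1, of valine breakdown, lay below at 4 of 5 probe sets, with 342, 371 and 418, then 108, 137 and 161, then 66.7, 44.0 and 59.2 at the widest. There shco4 was lower than shco2 by a difference of -1.26, whereas at the other 3 probe sets that met the rule it was higher, by 0.57, 0.58 and 0.44. TXNRD1, a thioredoxin reductase controlled by NRF2, read 5540, 4749 and 5416, then 2852, 2721 and 2792, then 2998, 3015 and 3019. Its hairpin arrays were nearly level, and with GGT5 it made up the 2 of 17 NRF2 and glutathione genes below by their brightest probe set. WARS1, the tryptophanyl transfer RNA synthetase, read 910 to 980, then 243 to 300, then 595 to 721, and with VLDLR made up the 2 of 22 ATF4 targets below, a count that was 4 without scramble replicate 3 and without shco2 replicate 1.

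**Figure D3:**
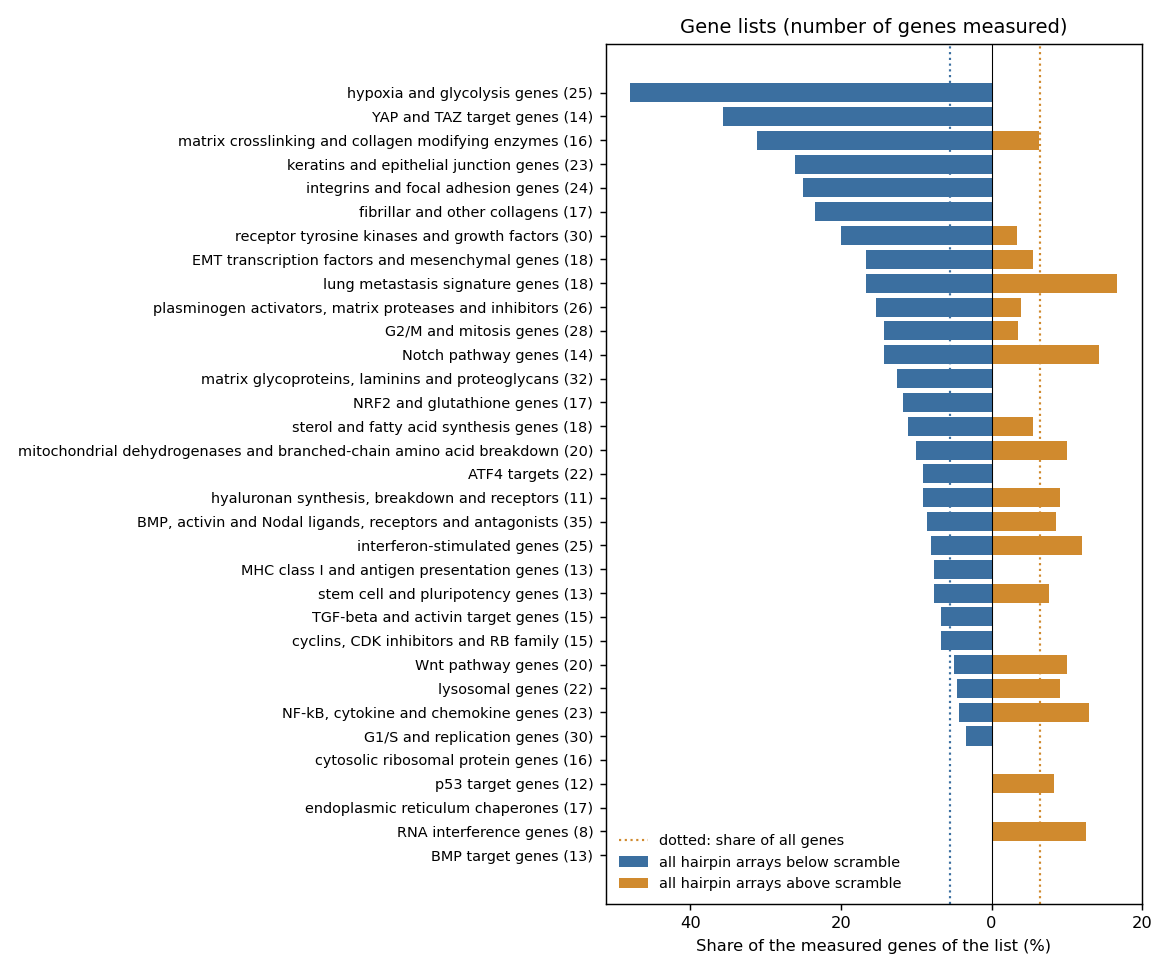
Share of the measured genes of each list with all hairpin arrays above (bars to the right) or below (bars to the left) all scramble arrays, in percent, with 1 probe set per gene. Dotted lines mark the shares over all genes, 6.44% above and 5.46% below; hypoxia and glycolysis genes reach 48.0% below.

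The lists were chosen with earlier results of these data known, so the shares describe these genes and set no list apart from others. List counts given without a share are to be read beside the 6.44% of all genes above and the 5.46% below. Genes with several probe sets gave a further look at single values. Of 4310 genes with at least 2 probe sets, 895 had a probe set that met the rule, 272 had 2 or more in 1 direction and 151 had all of them. Of 1186 other probe sets of these genes, 981 had a mean difference on the same side of 0. That count leaves out probe sets at the floor on all arrays and the 6 genes that met the rule in both directions. How often probe sets of 1 gene go together over all genes was not counted, and all were read on the same arrays. These counts are therefore descriptions without a background to set them against. HFE lay below at 6 of 13, GM2A at 5 of 6 and PDLIM5 at 5 of 9. GM2A, a lysosomal cofactor for ganglioside breakdown, read 229, 248 and 230 in scramble, 89.3, 94.6 and 100 with shco2 and 116, 91.4 and 102 with shco4 at its widest. PDLIM5, a scaffold protein on actin fibres, read 1864, 2197 and 2248, then 808, 929 and 964, then 482, 613 and 692. SERINC3, a membrane protein, lay below at all 4, with 964, 975 and 1061, then 395, 447 and 409, then 318, 297 and 284. BRD2, CTBP1, EIF4E2 and EXOSC4 lay above at all 3 of their probe sets. LOXL2 was an opposite case, since of its 3 probe sets 1 lay below, 1 overlapped and 1 was at the floor.

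The hairpins were also compared with each other, by limma with Benjamini-Hochberg adjustment over all probe sets. Over the array, 6881 of 22215 probe sets (31.0%) were called between shco4 and shco2, 3299 higher (14.9%) and 3582 lower (16.1%). Among the 2304 that set both hairpins apart from scramble, 742 (32.2%) were called, a share near that of the whole array. Above scramble, 147 were higher and 199 lower with shco4, and below scramble, 206 were higher and 190 lower. Of the 309 with a mean difference of at least 2-fold, 120 (38.8%) were called. At least 2-fold with each hairpin alone were 36 above and 105 below. The hairpins differed by less than 1.25-fold in 62.9% of the 2304 and in 46.7% of all probe sets above the floor on some array, a closeness that the rule itself favours.

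**Figure D4:**
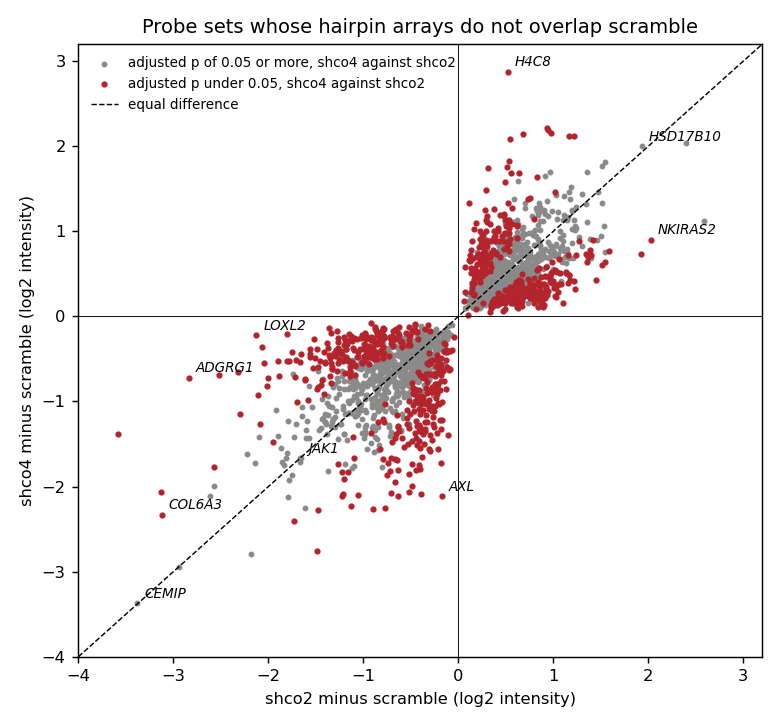
Difference from scramble with shco2 (horizontal) and shco4 (vertical), in log2 units, for the 2304 probe sets whose hairpin arrays do not overlap scramble; red points have a limma adjusted p under 0.05 between the hairpins. CEMIP, JAK1 and HSD17B10 lie on the line of equal difference, and AXL, LOXL2 and H4C8 lie far from it.

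CEMIP, JAK1, TGM2, CDCP1 and HSD17B10 lay at the even end, with intervals of the difference between hairpins that ran from -0.45 at the lowest to 0.38 at the highest on the log2 scale. At the other end, H4C8, a clustered histone gene with near-identical copies that its probes may also read, gave 82.3, 80.2 and 63.7 in scramble, 102, 121 and 100 with shco2 and 644, 544 and 472 with shco4. ADGRG1, an adhesion receptor, read 364, 424 and 531, then 35.9, 71.5 and 87.0, then 199, 335 and 274. For such genes the mean of both hairpins averages a large and a small difference. Among probe sets below, 36 were at least 2-fold further from scramble with shco2 and 43 with shco4, and among those above, 4 and 14.

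The share that met the rule varied with level. Of 6649 probe sets with a mean log2 intensity of 4 to 6, 1.35% lay above and 1.86% below, and of 5241 at 8 to 10, 9.52% and 8.13%. Among the 706 brightest, at 12 to 15, 6.66% and 6.23% met it, with 0 above and 1 below by at least 2-fold. GGCGCC, a BMP-responsive element, was found in 30.1% of promoters of genes above, 33.0% of those below and 27.2% over the array. It was found in 37.9% of the 58 promoters of genes at least 2-fold above and 35.8% of the 123 at least 2-fold below. TATAAA was found in 5.08%, 6.51% and 8.3%. TGACTCA, the AP-1 site, was found in 3.05%, 3.03% and 3.56%. GGAATG, bound by TEAD factors, the partners of YAP and TAZ, was found in 11.3%, 9.23% and 11.3%. CAGGTG, the E-box of Snail and Zeb, was found in 17.3%, 19.5% and 18.7%. Of genes changed at least 2-fold, it was in 15.5% of 58 promoters above and 26.8% of 123 below.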

How the data were processed

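RNA of 9 MDA-MB-231 samples was read on Affymetrix 3′ arrays. The deposited table holds linear intensity values for 22277 probe sets. Tested on the values, the authors had scaled each array to the same trimmed mean, 499.9 with 2% cut at either end; the summary method is not given in the sources used here. Intensities were floored at 16 before the log2 step. Controls (62) took no part. The annotation gave 1 symbol to 19064 of the other 22215, several to 1043 and none to 2108, and 2611 lay at the floor on all arrays.

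A mean per group was fitted with lmFit and eBayes of limma 3.58.1 (R 4.3.3) to all 9 arrays, with two-sided tests adjusted by Benjamini-Hochberg over 22215 probe sets and calls at an adjusted p under 0.05. Prior degrees of freedom were 0.53. The fit was tested on simulated data. With 3 arrays per group, their number limits the precision.

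The members, gene lists, motifs and rules were chosen with earlier results of these data known. Named genes were those with the 20 widest gaps each way, the 5 brightest of at least 2-fold each way, the 6 largest called differences between hairpins each way, the 5 with the most qualifying probe sets each way, up to 4 per list, and DAND5, ID1, BMP4, WWTR1, CD44, HSD17B10, CEMIP and COL6A3; RBMX2, DNAJC8, CCN2, COL6A1, ADM and the other genes that lie outside it were named after their values were seen. Lists use the brightest probe set of a gene. Alternatives were floors of 1 and 64, quantile normalization, median centring, a filter on dim probe sets, an intensity trend with robust prior, the replicate number as a block, and leaving out each array.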

Additional observations from a re-analysis of the deposited data

Results flagged for a closer look

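For 12 genes in which both hairpins lay on 1 side of scramble, the size of that difference itself differed between the hairpins by the test of shco4 against shco2 (limma, Benjamini-Hochberg over all probe sets, n = 3 per group). These are the 6 largest called differences each way. Higher with shco4 than with shco2 were H4C8 by 2.35 on the log2 scale (adjusted p = 0.000146), COL1A2 by 2.20 (adjusted p = 0.00232), ADGRG1 by 2.12 (adjusted p = 0.00562), LOXL2 by 1.90 (adjusted p = 2.62e-05), SCNN1A by 1.83 (adjusted p = 0.00138) and NXT2 by 1.70 (adjusted p = 0.000647). In H4C8 shco4 was the hairpin further from scramble, and in the other 5, all below scramble, it was shco2. The other, dimmer ADGRG1 probe set overlapped scramble and was not called between the hairpins (0.77, limma adjusted p = 0.221). SCNN1A met the rule at 1 of its 3 probe sets and NXT2 at 1 of 2.

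Lower with shco4 were AXL by -1.94 (adjusted p = 8.63e-05), TTC28 by -1.69 (adjusted p = 0.000108), CASP2 by -1.54 (adjusted p = 0.000478), PGM1 by -1.54 (adjusted p = 0.000136), CLIC4 by -1.50 (adjusted p = 0.000556) and GPSM3 by -1.48 (adjusted p = 0.0103). All 6 lay below scramble, further with shco4. AXL and TTC28 each met the rule at 1 of 2 probe sets, CASP2 at 3 of 5, CLIC4 at 2 of 3 and GPSM3 at 2 of 2. AXL is a receptor tyrosine kinase, CLIC4 a chloride channel family protein, and PGM1 an enzyme of glycogen metabolism. PGM1 read 3397 to 4051 in scramble, 3276 to 3344 with shco2 and 1032 to 1296 with shco4. COL1A2 read 2.6 to 12.2 with shco2 at this probe set, under the floor of 16, so its difference is a lower bound; with a floor of 64 the call was lost (adjusted p = 0.504), and its other probe set overlapped scramble.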

How the results depend on the processing

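Counts kept within 1.5 times of the reported ones under the floors, normalizations, filter, trend and replicate block: 1087 to 1396 probe sets above, 981 to 1153 below, 1026 to 1867 and 1290 to 2071 called higher and lower for the mean of both hairpins, and 285 to 405 and 292 to 409 called between shco4 and shco2. Of the 2304 probe sets, 2117 met the rule with a floor of 64, 2136 after quantile normalization and 2107 after median centring, and 1863 (80.9%) under all of these and a floor of 1. The filter left 230 untested. Leaving out single arrays gave 1293 to 1716 above and 1211 to 1581 below, since fewer arrays must be separated, with 296 to 442 and 306 to 489 called between hairpins. Calls for the mean of both hairpins ran from 856 to 1395 higher and from 968 to 1549 lower; they were 892 and 1023 without scramble replicate 1, 856 and 968 without scramble replicate 2, and 978 and 1025 without scramble replicate 3. LGALS1 reversed between hairpins after quantile normalization (-0.0251, adjusted p = 0.857, against 0.20). In the fit with a replicate block, 1867 and 1957 were called for the mean of both hairpins and 405 and 409 between hairpins. Deviations of same-numbered arrays correlated at 0.0571 to 0.29, over 0.1 in 7 of 9 pairs, and in 18 of 18 cases an array correlated best with its own number, a hint from the data and not the design. The median over all probe sets moved by at most 0.0201 for both hairpins minus scramble, and by at most 0.0401 between the hairpins (floor of 1). Dim probe sets depend most on the floor.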

Other observations

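Some gene families stood out on reading the genes that met the rule, and they were chosen after their values were seen. Zinc finger genes with ZNF, ZFP, ZSCAN or ZKSCAN symbols, mostly DNA-binding repressors, lay above scramble at 42 of 258 (16.3%) and below at 3 (1.16%), with a median difference of 0.25 where that of all genes was 0. The count above was 39 to 50 under the other processing settings and 44 to 64 with single arrays left out (64 without scramble replicate 3). The count below was then 3 to 7 (7 without scramble replicate 1, and 5 without scramble replicate 3 and without shco4 replicate 3). ZFP37 read 73.1, 78.1 and 61.7 in scramble, 141, 144 and 145 with shco2 and 201, 182 and 202 with shco4, and ZFP30 read 104, 109 and 105, then 262, 168 and 236, then 171, 191 and 165. On chromosome 19, where many of these genes are clustered, 23 of 107 lay above and 0 below, against 58 (8.25%) and 26 (3.7%) of the 703 other genes there.

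Smaller families can be read beside the 6.44% of all genes above and 5.46% below. Mitochondrial ribosomal proteins lay above at 10 of 51 (19.6%) and below at 1, NADH dehydrogenase subunits above at 5 of 28 (17.9%), and proteasome subunits above at 6 of 34 (17.6%), with 0 below in the last 2. The NADH dehydrogenase count was 8 with median centring, 9 without scramble replicate 1 and 8 without shco4 replicate 2. Mediator subunits lay above at 6 of 21 (28.6%) and below at 3 (14.3%). Clustered histone genes lay above at 5 of 42 (11.9%), but at 2 with a floor of 64. Below were AKR1C aldo-keto reductases at 3 of 4 (AKR1C1, AKR1C2 and AKR1C3, close copies whose probes may share signal), septins at 3 of 8 (37.5%), PDLIM scaffold genes at 3 of 6 (50%) and S100 calcium-binding proteins at 4 of 17 (23.5%), each with 0 above. These counts carry no test.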
